A study of Mus musculus with 9 samples.

Results

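The small leucine-rich proteoglycans (SLRPs) are secreted matrix proteins built on a core of leucine-rich repeats, many of which carry chondroitin, dermatan or keratan sulfate chains. They bind collagen fibrils and tune fibril diameter and spacing, and several hold growth factors of the TGF-β family in the matrix. Cartilage is rich in decorin, biglycan, fibromodulin, lumican and PRELP, and loss of SLRPs is known to give disordered collagen and early osteoarthritis in mice. The 10 SLRP genes *Dcn*, *Bgn*, *Fmod*, *Lum*, *Prelp*, *Epyc*, *Ogn*, *Aspn*, *Omd* and *Chad* were found by gene symbol among the 55471 genes measured, and all 10 were among the 15362 genes with enough counts to be tested.

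The levels were read in 9 cultures of primary articular chondrocytes, 3 in each of 3 groups, isolated from the knee cartilage of wild-type pups at postnatal day 5. The Control cells received, in the methods, a control adenovirus without OSCAR. The second group received Ad-OSCAR, a virus carrying the gene for OSCAR, a receptor for collagen, and the third received Ad-OSCAR and then 5-ASA (5-aminosalicylic acid, 10 µM in the study's methods). According to the methods all plates were coated with a collagen peptide that binds OSCAR and IL-1β was absent. The labels give 3 days of culture, 2 h of infection at 400 MOI and 36 h before 5-ASA, whereas the methods give 2 days, 800 MOI of Ad-OSCAR for 2 h and 24 h with or without the drug. For primary chondrocytes the methods name ICR or C57BL/6J pups and the reporting summary names ICR pups of both sexes, without saying which were used for the RNA. Whether each culture came from separate animals is not given in the sources used here, so the tests measure the spread between cultures, which may be technical. A group with 5-ASA but without Ad-OSCAR was not analysed here.

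Libraries held 19733448 to 28192740 counts. *Oscar* was read at 3 to 4 counts with Control, 173445 to 187278 with Ad-OSCAR and 80766 to 94199 with Ad-OSCAR and 5-ASA. The treated cultures thus carried less *Oscar* RNA, by 0.97 on the log2 scale, and in every comparison with the treated cultures the drug and that lower *Oscar* level cannot be told apart. The cells carried all 10 of the chondrocyte markers examined, *Col2a1*, *Acan* and *Sox9* among them, and all 10 were lower with Ad-OSCAR. Their summed level went from between 14068 and 16034 to between 878 and 1011 TPM, and to between 975 and 1162 TPM with 5-ASA. Of these markers 5 were called higher with 5-ASA and none lower. Of 8 fibroblast markers 7 were lower and 1 was higher with Ad-OSCAR (sums of 6423 to 6619 against 4632 to 5126 TPM), and 7 rose with 5-ASA (5303 to 5553 TPM). Among all genes tested, 32.7% were called higher and 32.2% lower with Ad-OSCAR, and 10.4% higher and 7.38% lower with 5-ASA. Tendon and osteoblast markers were low and lower still with Ad-OSCAR (42.6 to 53.2 against 27.7 to 30.03 TPM, and 48.8 to 56.2 against 11.6 to 17.8 TPM), while the summed synovial lining list went from between 150.2 and 165.5 to between 520 and 569 TPM. With 5-ASA the osteoblast list stood at 22.2 to 24.3 TPM (2 genes called higher), the tendon list at 21.2 to 23.5 TPM (1 higher), the synovial lining list at 431 to 488 TPM (1 lower) and the macrophage list at 15.7 to 17.0 TPM (1 lower). With Ad-OSCAR the macrophage list went from between 7.66 and 10.9 to between 19.8 and 22.0 TPM, with *Ptprc*, *Adgre1* and *C1qa* at no more than 3 counts in any culture, and the osteoclast list went from between 17.5 and 18.3 to between 11.5 and 12.8 TPM (1 gene higher and 1 lower). The endothelial, muscle, adipocyte and erythroid lists summed to at most 2.31 TPM. The part of these shifts in the SLRP results was not tested, and in bulk RNA fewer cells of a type and less RNA per cell cannot be told apart.

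In the Control cells, 7 of the SLRP genes were abundant and 3 were scarce. Levels of different genes were set side by side in TPM, a share of all transcripts that is corrected for length. The order was *Dcn*, *Bgn*, *Fmod*, *Lum*, *Prelp*, *Epyc*, *Ogn*, *Omd*, *Chad* and *Aspn*, and no neighbours in that order overlapped in their 3 cultures. *Dcn* ranked 73 of all genes by mean level and *Ogn* ranked 441, whereas *Omd* ranked 6552, *Chad* 12023 and *Aspn* 13949. With Ad-OSCAR the order became *Dcn*, *Bgn*, *Lum*, *Prelp*, *Epyc*, *Fmod*, *Ogn*, *Omd*, *Chad* and *Aspn*. There *Bgn*, at 866 to 921 TPM, and *Lum*, at 791 to 909 TPM, overlapped, and no other neighbours did. The order with 5-ASA was that of the Ad-OSCAR cells, and no neighbours overlapped.

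**Figure D1:**
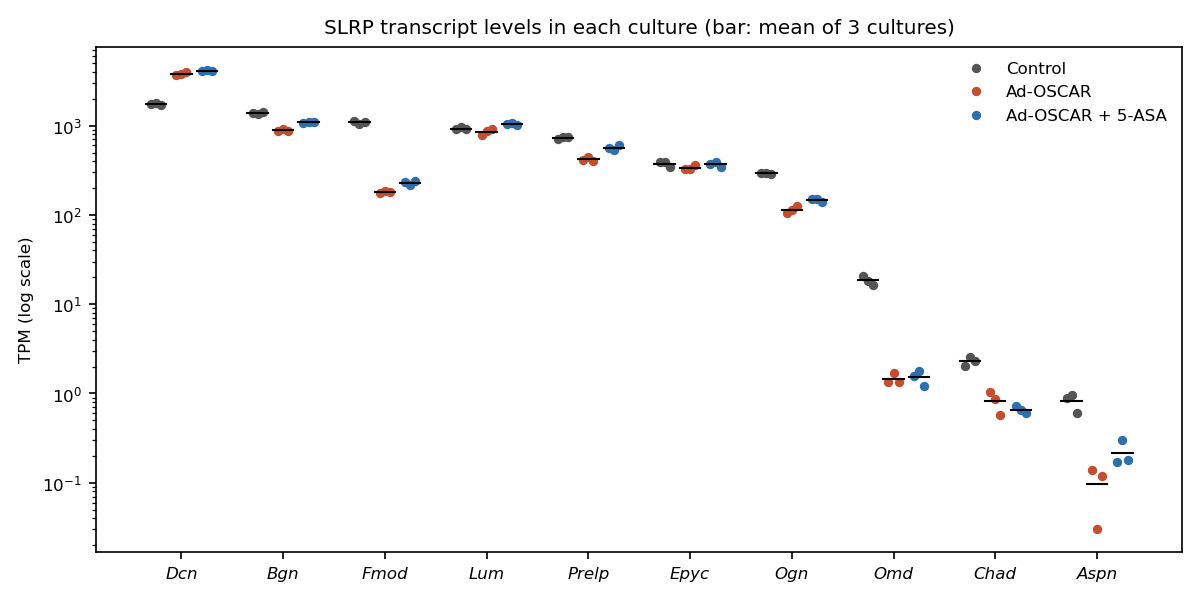
TPM (log axis) of the 10 SLRP genes in each of the 9 cultures, with points for cultures and a bar for the mean of 3. *Dcn* is the only gene whose Ad-OSCAR cultures lie above Control (3714 to 3979 against 1688 to 1807 TPM), and *Fmod* and *Omd* show wide gaps downward.

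The summed SLRP level overlapped between Control and Ad-OSCAR cultures while its make-up shifted towards decorin. The 10 genes together summed to 6605, 6592 and 6512 TPM in the Control cultures and to 6391, 6653 and 6837 TPM in the Ad-OSCAR cultures, which overlap. In the 5-ASA-treated cultures the sums were 7491, 7685 and 7558 TPM, above every culture of both other groups. *Dcn* made up 26.6% ± 0.773 (SD, n = 3) of that sum with Control, 57.7% ± 0.727 with Ad-OSCAR and 54.5% ± 0.274 with 5-ASA. *Fmod* went the other way, from 16.6% ± 0.747 to 2.73% ± 0.0725 and then 3.04% ± 0.175, and *Bgn* went from 21.1% ± 0.681 to 13.4% ± 0.547 and then 14.4% ± 0.112. *Lum* kept between 12.9% and 14.1% of the sum on average in the 3 groups. These sums and shares are descriptions without a test.

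**Figure D2:**
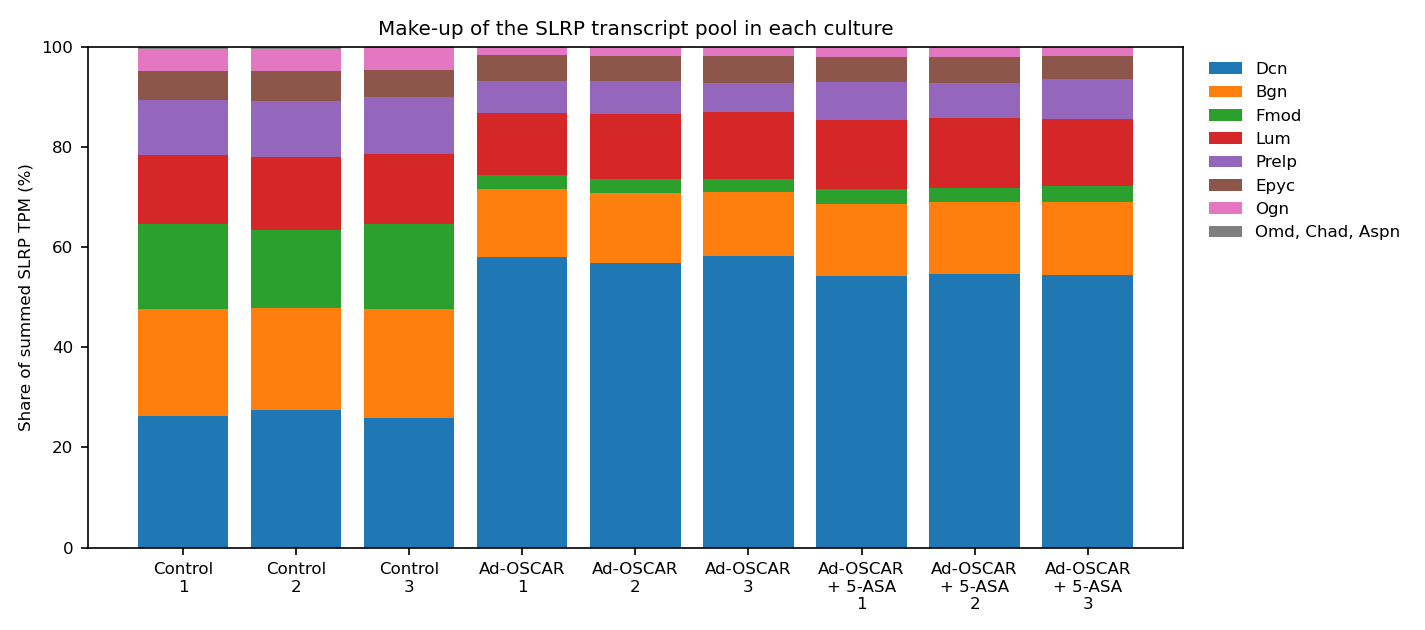
Share of each SLRP gene in the summed SLRP TPM (percent, stacked bars) in each culture. *Dcn* takes 26.6% on average with Control and 57.7% with Ad-OSCAR, while the *Fmod* band shrinks from 16.6% to 2.73%.

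OSCAR overexpression raised 1 SLRP gene and lowered 9 at an adjusted p below 0.05 (quasi-likelihood F test of edgeR, Benjamini-Hochberg or BH adjustment over all genes tested). By the same rule, 65.0% of all genes tested were called in this comparison (32.7% higher and 32.2% lower), so that a call alone sets an SLRP gene little apart. The median log2 fold change was -1.11 over the 10 SLRP genes and 0.02 over all genes tested. With the study's limit of 1.5 on the log2 scale, *Fmod*, *Omd* and *Aspn* were lower and none was higher, where 5.39% and 4.57% of genes passed in those directions (9.96% in either). *Chad*, at -1.498, lay just inside this limit. The count of lower genes past it was 4 with DESeq2, RLE, the replicate block or without Control culture 1, Ad-OSCAR culture 1 or Ad-OSCAR culture 2, and 2 on log2(TPM + 1) or with at least 10 counts in every culture. In CPM (counts scaled to library size) the groups did not overlap in any of the 10 genes, which held for 69.0% of genes tested (35.0% with every Ad-OSCAR culture higher, 34.0% lower). *Epyc* was separate by under 1 CPM there and overlapped in TPM, which leaves 9, and no share over all genes was taken in TPM. *Aspn* passed the filter on low counts only through its Control level and so had to be lower.

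The sequences upstream of 4 starts are shown. They include *Fmod*, *Omd* and *Ogn*, which had the largest falls once *Aspn* and *Chad*, with the fewest counts, are set aside. *Omd* was scarce too, at 30 to 36 counts with Ad-OSCAR. The other sequence is from *Epyc*, which changed least together with *Lum*. Each sequence holds the 250 bases before the RefSeq start on GRCm38.p6, 5′ to 3′ on the gene's strand, and 8 of the 10 genes were found in that table, *Dcn* and *Lum* not. Capitals mark matches on either strand to a TATA box (TATAAA), the core that SOX factors bind (ACAAT), the AP-1 site (TGANTCA) or the E-box (CANNTG).
Fmod (chr1:134037004-134037253, plus strand): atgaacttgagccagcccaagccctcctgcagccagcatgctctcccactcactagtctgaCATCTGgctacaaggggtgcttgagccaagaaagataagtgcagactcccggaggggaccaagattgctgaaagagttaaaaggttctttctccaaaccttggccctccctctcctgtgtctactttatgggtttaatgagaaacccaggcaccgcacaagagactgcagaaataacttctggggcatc
Omd (chr13:49582212-49582461, plus strand): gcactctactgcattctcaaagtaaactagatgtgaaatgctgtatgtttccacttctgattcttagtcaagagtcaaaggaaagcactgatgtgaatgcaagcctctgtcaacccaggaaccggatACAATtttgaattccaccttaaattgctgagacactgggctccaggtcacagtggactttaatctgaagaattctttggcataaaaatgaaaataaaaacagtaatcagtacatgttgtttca
Ogn (chr13:49607765-49608014, plus strand): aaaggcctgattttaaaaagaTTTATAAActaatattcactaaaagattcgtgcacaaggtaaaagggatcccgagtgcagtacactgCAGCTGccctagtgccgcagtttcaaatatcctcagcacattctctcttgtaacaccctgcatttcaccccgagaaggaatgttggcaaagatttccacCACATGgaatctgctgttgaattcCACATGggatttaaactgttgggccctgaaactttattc
Epyc (chr10:97643818-97644067, plus strand): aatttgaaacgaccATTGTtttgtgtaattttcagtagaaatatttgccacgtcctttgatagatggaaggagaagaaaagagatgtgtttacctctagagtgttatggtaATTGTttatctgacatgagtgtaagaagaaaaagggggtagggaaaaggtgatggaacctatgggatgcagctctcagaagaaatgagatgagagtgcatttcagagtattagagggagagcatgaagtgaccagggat
The *Fmod* window held an E-box, that of *Omd* a SOX core, that of *Ogn* 3 E-boxes and a pair of overlapping TATA matches far from the start (229 and 227 bases before it), and that of *Epyc* 2 SOX cores. The table gives *Epyc* a second start, and the window before it (not shown, chr10:97646853-97647102) held 3 SOX cores and 2 E-boxes. No window of the 8 genes held an AP-1 match. Among 32851 such windows of all genes, 66.2% held an E-box, 27.7% a SOX core, 12.4% a TATA match and 6.75% an AP-1 match. These matches are letters in a window and not sites shown to be bound.

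The class I SLRPs decorin, biglycan and asporin are close relatives, and they moved apart. *Dcn* encodes decorin, which binds collagen fibrils and TGF-β. It stood at 1739.9, 1807 and 1688 TPM in the Control cultures, at 3714, 3786 and 3979 TPM with Ad-OSCAR and at 4059, 4205 and 4121 TPM with 5-ASA. All 3 groups were separate, with the step at Ad-OSCAR the larger. The rise with Ad-OSCAR was 1.10 on the log2 scale (standard error 0.040, 2.15-fold, edgeR BH-adjusted p = 3.15e-14).

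*Bgn* encodes biglycan, which binds collagen and, when released from the matrix, signals through Toll-like receptors. Its levels were 1403, 1343 and 1414 TPM with Control, 866, 921 and 874 TPM with Ad-OSCAR and 1079, 1099.9 and 1099 TPM with 5-ASA. The Ad-OSCAR cultures were the lowest and the treated ones lay between the other groups. *Bgn* was 1.60-fold lower with Ad-OSCAR (log2 fold change -0.68, standard error 0.041, edgeR BH-adjusted p = 6.59e-11). The ratio of *Dcn* to *Bgn* in TPM, which does not depend on the library scaling, was 1.26 ± 0.078 with Control, 4.32 ± 0.223 with Ad-OSCAR and 3.78 ± 0.0395 with 5-ASA (SD, n = 3 each).

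*Aspn* encodes asporin, which binds TGF-β and collagen and is known for a repeat of aspartates tied to osteoarthritis in people. It was read at a low depth, with 24, 30 and 15 counts with Control, 5, 1 and 4 with Ad-OSCAR and 6, 11 and 6 with 5-ASA. From summed counts scaled to library size, Control was 8.71 times Ad-OSCAR (95% exact interval 4.46 to 19.0, counting error only), and the fitted log2 fold change was -3.07 (standard error 0.43).

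The class II SLRPs fibromodulin, lumican, PRELP and osteomodulin ranged from a slight to a very large fall. *Fmod* encodes fibromodulin, a keratan sulfate proteoglycan that binds fibrillar collagen and takes part in crosslinking. Its levels were 1129, 1038 and 1106 TPM with Control, 176, 186 and 181 TPM with Ad-OSCAR and 232, 219 and 240.5 TPM with 5-ASA. It was 6.13-fold lower with Ad-OSCAR (log2 fold change -2.62, standard error 0.050, edgeR BH-adjusted p = 5.29e-18), and the treated cultures lay slightly above the untreated ones, far below Control.

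*Lum* encodes lumican, which is known to share a collagen binding site with fibromodulin. It stood at 913, 960.3 and 914 TPM with Control, 791, 873 and 909 TPM with Ad-OSCAR and 1031, 1077 and 1007 TPM with 5-ASA. The fall with Ad-OSCAR was slight, 1.10-fold (log2 fold change -0.14, 95% interval -0.25 to -0.03, edgeR BH-adjusted p = 0.021). This call was lost without Ad-OSCAR culture 1 (-0.08, adjusted p = 0.178, same test), without Control culture 2 (-0.13, adjusted p = 0.067, same test) and on TPM with limma (-0.12). The ratio of *Lum* to *Fmod* was 0.854 ± 0.0627 with Control, 4.74 ± 0.262 with Ad-OSCAR and 4.52 ± 0.374 with 5-ASA (SD, n = 3 each), so that the more abundant of the pair changed from *Fmod* to *Lum*.

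*Prelp* encodes PRELP, which links collagen to heparan sulfate. Its levels were 717, 737 and 738 TPM with Control, 411, 441 and 405 TPM with Ad-OSCAR and 566, 535 and 602 TPM with 5-ASA, 3 separate groups with the treated cells in the middle. It was 1.77-fold lower with Ad-OSCAR (log2 fold change -0.83, standard error 0.048). *Omd* encodes osteomodulin (osteoadherin), a keratan sulfate proteoglycan best known from bone. It had 369, 375 and 265 counts with Control, 33, 36 and 30 with Ad-OSCAR and 36, 44 and 28 with 5-ASA. This was the largest fitted fall of the 10 genes, 12.8-fold (log2 fold change -3.68, standard error 0.15, edgeR BH-adjusted p = 1.5e-13), and the groups with and without 5-ASA overlapped.

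The class III SLRPs epiphycan and osteoglycin differed as well. *Epyc* encodes epiphycan, a proteoglycan of epiphyseal cartilage. It stood at 388, 387 and 348 TPM with Control, 327, 331 and 361 TPM with Ad-OSCAR and 369.6, 395 and 348 TPM with 5-ASA, and on this scale the groups overlapped. In the count fit it was 1.12-fold lower with Ad-OSCAR (log2 fold change -0.17, 95% interval -0.29 to -0.05, edgeR BH-adjusted p = 0.017). The call was lost without Control culture 1 (-0.14, adjusted p = 0.0756, same test), Control culture 2 (-0.15, adjusted p = 0.0539, same test) or Ad-OSCAR culture 1 (-0.13, adjusted p = 0.0912, same test), and on TPM with limma (-0.14). *Ogn* encodes osteoglycin (mimecan), which affects collagen fibril size. Its levels were 292, 298 and 285 TPM with Control, 105, 112 and 124 TPM with Ad-OSCAR and 151, 151 and 139.8 TPM with 5-ASA. It was 2.61-fold lower with Ad-OSCAR (log2 fold change -1.39, standard error 0.059, edgeR BH-adjusted p = 3.3e-13), and the treated cultures lay between the other groups. The ratio of *Ogn* to its neighbour *Omd* rose from 15.9 ± 1.54 to 78.8 ± 12.3 and was 98.8 ± 16.4 with 5-ASA (SD, n = 3 each).

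*Chad*, of class IV, encodes chondroadherin, which carries no glycosaminoglycan chain and binds chondrocytes through integrin α2β1. It had 39, 56 and 40 counts with Control, 27, 19 and 14 with Ad-OSCAR and 18, 17 and 14 with 5-ASA. In summed counts scaled to library size, Control was 2.84 times Ad-OSCAR (95% exact interval 2.08 to 3.92, counting error only), and the log2 fold change was -1.50 (standard error 0.25, edgeR BH-adjusted p = 4.17e-05).

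**Figure D3:**
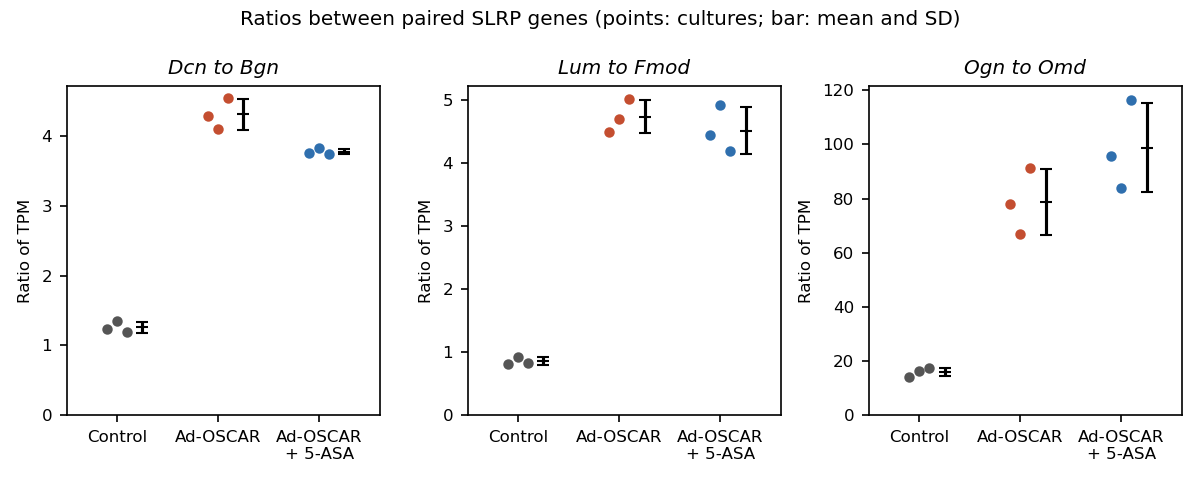
Ratios of TPM between 3 pairs of SLRP genes (y axes start at 0) in each culture, with the mean and SD of 3 cultures. *Dcn* to *Bgn* goes from 1.26 to 4.32, *Lum* to *Fmod* from 0.854 to 4.74 and *Ogn* to *Omd* from 15.9 to 78.8 between Control and Ad-OSCAR.

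The pairs in these ratios, and the further pair *Prelp* to *Fmod* (0.671 ± 0.0377, 2.32 ± 0.0712 and 2.46 ± 0.0355 in the 3 groups), were chosen after the values were seen, and 8 comparisons were made. For each of them no Control culture overlapped an Ad-OSCAR culture (two-sided exact permutation p = 0.1, BH-adjusted 0.133, where 0.1 is the smallest that 3 cultures against 3 can give). Between treated and untreated Ad-OSCAR cells the ratio of *Dcn* to *Bgn* was lower in every treated culture (exact permutation p = 0.1, BH-adjusted 0.133), and that of *Prelp* to *Fmod* was higher in every treated culture (exact permutation p = 0.1, BH-adjusted 0.133), while those of *Lum* to *Fmod* (exact permutation p = 0.4, BH-adjusted 0.4) and *Ogn* to *Omd* (exact permutation p = 0.2, BH-adjusted 0.229) overlapped.

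Next, the effect of 5-ASA was read between treated and untreated Ad-OSCAR cells. Of the 10 SLRP genes 7 rose by adjusted p below 0.05 and none fell, where 10.4% of genes tested rose and 7.38% fell by the same edgeR test (17.8% in either direction). The 7 were the abundant ones, namely *Dcn*, *Bgn*, *Fmod*, *Lum*, *Prelp*, *Epyc* and *Ogn*. None of the 7 passed a limit of 1.5-fold, which 1.61% of genes passed upward and 2.71% in either direction. The study's methods pair that limit with an unadjusted p, for treated cells against Control, where *Aspn* was 3.60-fold lower. Applied here instead to treated against untreated Ad-OSCAR cells, that rule passed *Aspn* (2.33-fold, edgeR unadjusted p = 0.0343) and 2.27% of genes upward. The median log2 fold change was 0.38 over the SLRP genes and -0.0044 over all genes tested. In CPM the groups did not overlap in 8 of the 10, against 33.8% of genes tested. In TPM *Epyc* overlapped as well, which leaves 7, and no share over all genes was taken on that scale.

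The rises were small but not equal, from 0.20 to 0.53 on the log2 scale. *Prelp* had the largest among the called genes, 1.44-fold (log2 fold change 0.53, standard error 0.048, edgeR BH-adjusted p = 5.56e-07). *Ogn* rose 1.38-fold (0.47, standard error 0.058), *Fmod* 1.36-fold (0.44, standard error 0.048), *Bgn* 1.31-fold (0.39, standard error 0.041) and *Lum* 1.29-fold (0.37, standard error 0.051). *Epyc* rose 1.17-fold (0.22, 95% interval 0.10 to 0.34, edgeR BH-adjusted p = 0.012) and *Dcn* 1.15-fold (0.20, 95% interval 0.12 to 0.29, adjusted p = 0.00119, same test). On log2(TPM + 0.1) with limma, these last 2 genes were not called (*Epyc* 0.13, adjusted p = 0.211, and *Dcn* 0.11, adjusted p = 0.147), where the median of all genes tested was -0.10. The call of *Epyc* was also lost without Ad-OSCAR culture 1 (0.18, adjusted p = 0.0752, edgeR) and without treated culture 2 (0.17, adjusted p = 0.0648, edgeR).

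The 3 scarce genes were not called with 5-ASA. *Omd* had a log2 fold change of 0.17 (95% interval -0.27 to 0.61) and *Chad* of -0.24 (95% interval -0.86 to 0.38), and the interval of *Omd* includes the size seen in *Prelp*. *Aspn* had more counts in every treated than in any untreated Ad-OSCAR culture, 2.38 times as many in sum (95% exact interval 1.09 to 5.60, counting error only), with an edgeR BH-adjusted p = 0.128.

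**Figure D4:**
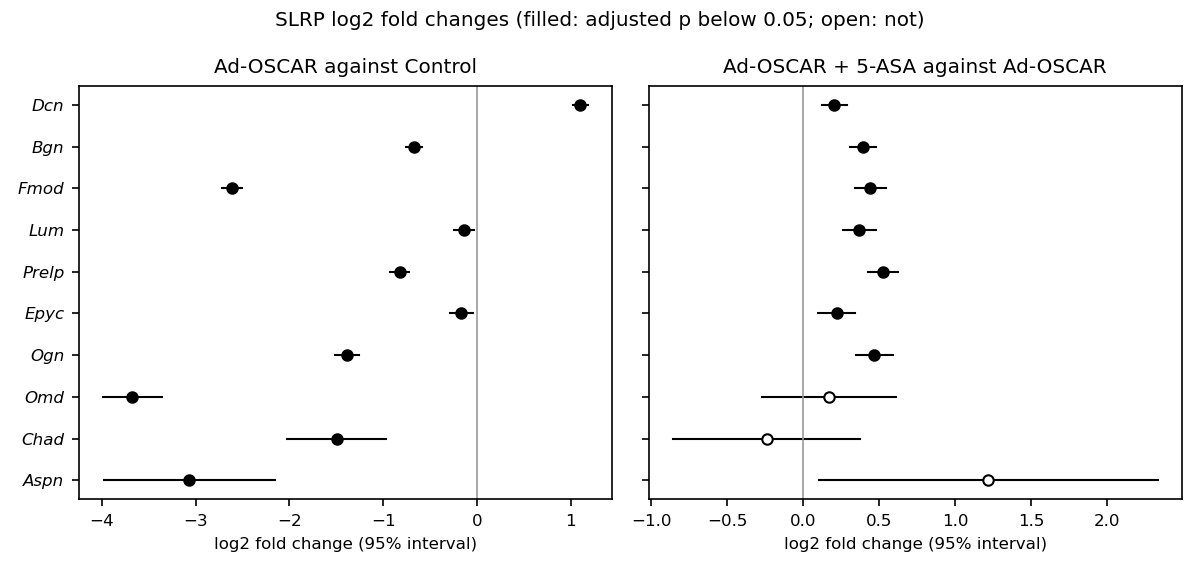
Log2 fold change of each SLRP gene with its 95% interval for Ad-OSCAR against Control (left) and for treated against untreated Ad-OSCAR cells (right, a narrower axis). Filled points have an adjusted p below 0.05. On the left only *Dcn* lies above 0, and on the right the 7 abundant genes lie between 0.20 and 0.53.

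Set against Control, the 5-ASA-treated cells still differed in 9 of the 10 genes, where 63.2% of genes tested were called (31.4% higher and 31.8% lower) and 29.1% were also past 1.5-fold. In CPM the groups did not overlap in 9 of the 10, against 66.6% of genes tested. *Dcn* was 2.47-fold and *Lum* 1.17-fold higher than with Control. *Bgn* was 1.22-fold, *Prelp* 1.23-fold, *Ogn* 1.89-fold, *Chad* 3.34-fold, *Aspn* 3.60-fold, *Fmod* 4.51-fold and *Omd* 11.4-fold lower. *Epyc* was not called (log2 fold change 0.05, 95% interval -0.07 to 0.17). *Aspn*, among the 9 in both counts, passed the filter on low counts only through its Control level and so had to be lower. This comparison shares its cultures with the others. *Lum* had a level below Control without 5-ASA and above it with 5-ASA.

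Most SLRP genes lie in clusters, and the clusters differed in what their genes did. On chromosome 10 (GRCm38) *Dcn*, *Lum*, *Kera* and *Epyc* lie within 203 kb, from 97479609 to 97682454, and hold the gene that rose and the 2 that fell least. On chromosome 1, *Optc*, *Prelp* and *Fmod* lie within 151 kb, from 133897199 to 134048277, and *Prelp* and *Fmod* fell while *Optc*, with 6 to 15 counts in Control and 13 to 19 in Ad-OSCAR cultures, had a log2 fold change of 0.31 (standard error 0.35, edgeR BH-adjusted p = 0.455). On chromosome 13, *Ecm2*, *Aspn*, *Omd* and *Ogn* lie within 119.7 kb, from 49504810 to 49624501, and *Aspn*, *Omd* and *Ogn* fell. *Ecm2*, at the end of that cluster, was read at 75 to 96 counts with Control and 72 to 90 with Ad-OSCAR (log2 fold change -0.34, standard error 0.16, edgeR BH-adjusted p = 0.0683). *Bgn* lies on chromosome X from 73483602 to 73495933 and *Chad* on chromosome 11 from 94565047 to 94569127. With 3 clusters this is a description and not a test of position.

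Several of these genes lie inside or over another gene on the opposite strand, and how strand entered the counting is not given in the sources used here. *Aspn*, *Omd* and *Ogn* lie inside *Cenpp*, with 7 exon bases of *Aspn* shared and none of the others. *Chad* lies inside *Acsf2* without shared exon bases. *Prelp* shares 350 of 3615 exon bases with *Gm15851* (79 to 161 counts) and *Epyc* 1041 of 2561 with *Gm10754* (24 to 51 counts), against 22332 to 36783 counts of *Prelp* and 6242 to 10760 of *Epyc*.

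The other genes of the SLRP family were read beside the 10. Of 8 listed, 6 could be tested, and with Ad-OSCAR 1 rose and 1 fell, 2 of 6 where 65.0% of all genes tested were called. *Tsku*, which encodes tsukushi, went from 93.9 ± 4.88 to 182 ± 3.90 TPM (SD, n = 3 each), a log2 fold change of 0.95. *Chadl*, a relative of *Chad* that affects collagen fibrils, went from 17.7 ± 3.33 to 3.37 ± 0.455 TPM, a log2 fold change of -2.88. With 5-ASA 3 of 6 rose, against 10.4% of all genes tested, and none fell, against 7.38% (none either with DESeq2 or at an unadjusted p below 0.05). *Podnl1* and *Podn*, which encode podocan-like protein 1 and podocan, had log2 fold changes of 0.54 and 0.53. *Kera* and *Nyx* had at most 3 and 16 counts in any culture and were not tested.

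The collagens that SLRPs bind mostly fell with Ad-OSCAR, and all 17 listed could be tested. Their median log2 fold change was -1.67, and 14 fell while 3 rose (17 of 17 called, against 65.0% of all genes tested). *Col5a3* and *Col5a2*, chains of the fibril-nucleating collagen V, rose by 1.92 and 0.79. *Col11a2*, a chain of collagen XI, and *Col14a1*, a fibril-associated collagen, had log2 fold changes of -4.91 and -4.64. With 5-ASA 9 of 17 rose, against 10.4% of all genes tested, and none fell, against 7.38% (none with DESeq2, 1 at an unadjusted p below 0.05). *Col14a1* was at 1.33 and *Col1a2* at 0.60.

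Of 21 enzymes of the glycosaminoglycan linker and of chondroitin and dermatan sulfate, 2 rose and 15 fell with Ad-OSCAR (17 of 21 called, against 65.0% of all genes tested, with a median of -0.48). The called genes included *Chsy1*, a chondroitin synthase, at -1.81 and *Xylt1*, which starts the chain on the core protein, at -1.17, and *B4galt7* at 0.44 and *Chst15* at 0.36. With 5-ASA 3 of them rose and 1 fell, 4 of 21 and near the 17.8% of all genes, with *Dse*, which makes dermatan from chondroitin, at 0.37, *Csgalnact1* at 0.29 and *B4galt7* at -0.29. Of 4 keratan sulfate enzymes tested, 2 fell with Ad-OSCAR (*Chst1*, a sulfotransferase, at -1.75 and *B4galt1* at -0.15), which is below the 65.0% of all genes, and none was called with 5-ASA by edgeR, by DESeq2 or at an unadjusted p below 0.05.

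Of 13 genes for proteases that process or cleave SLRPs and their enhancer, 10 rose and 2 fell with Ad-OSCAR (12 of 13, against 65.0% of all genes, median 1.21). *Mmp12* and *Mmp9* rose by 5.07 and 2.82 on the log2 scale, and *Pcolce*, the enhancer of the procollagen proteinase, and *Tll1* had log2 fold changes of -1.33 and -0.61. *Tll1* was scarce, at 0.70 TPM with Control and 0.45 TPM with Ad-OSCAR (edgeR BH-adjusted p = 0.0359). By DESeq2 10 genes of this list rose and 1 fell. With 5-ASA 6 rose and 1 fell (7 of 13, against 17.8% of all genes), with *Mmp9* at 0.61, *Mmp2* at 0.37 and *Mmp12* at -1.30. Of 15 ligands and receptors of SLRP core proteins, 6 rose and 5 fell with Ad-OSCAR (median 0.03), and these 11 of 15 are near the 65.0% of all genes. *Tlr2*, a receptor for biglycan, rose by 1.94 and *Tgfb1*, a ligand bound by decorin, by 1.11, while *Tgfb3* and the collagen receptor gene *Itga1* had log2 fold changes of -1.42 and -1.02. With 5-ASA 7 rose and 3 fell (10 of 15, against 17.8% of all genes), with *Itga1* at 0.53, *Tgfb2* at 0.51, *Itga2* at -0.50 and *Tlr2* at -0.43. The median of all genes tested was 0.02 with Ad-OSCAR and -0.0044 with 5-ASA.

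The genes whose pattern over the 9 cultures was most like that of the 4 most abundant SLRP genes were taken from 13244 genes by the root mean square difference of centred log2 CPM. They were *Ptgfr* and *Thbd* for *Dcn* (0.042 and 0.043), *Cd82* and *Neo1* for *Bgn* (0.025 and 0.035), *Ppp1r3c* and *Trabd2b* for *Fmod* (0.074 and 0.081) and *Runx1t1* and *Itih2* for *Lum* (0.056 and 0.057). The measure is over all 3 groups at once and follows mainly the difference between the groups.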

How the data were processed

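RNA from 9 cultures of mouse articular chondrocytes was sequenced with a stranded mRNA kit. Reads were trimmed with BBDuk, aligned with STAR 2.7.1a and quantified with RSEM 1.3.1, and the submitters' processing notes name GRCm38 (mm10); the reporting summary names a Gencode release and another RSEM version for TPM. The authors deposited per-gene estimated counts, which are not scaled and need not be whole, and TPM, scaled by RSEM to length and library, together with FPKM values and transcript lengths. FPKM was not used. Symbols and positions are from GENCODE M21, which matched 55144 of 55471 identifiers.

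Estimated counts were rounded (8.97% to 10.1% of values were not whole) and tested in R 4.3.3 with edgeR 4.0.16: TMM, filterByExpr, and a single quasi-likelihood fit over the 9 cultures with 1 term, the group, adjusted by Benjamini-Hochberg over 15362 genes. Standard errors were derived from the fold change and its F statistic. Single values were compared with exact permutation tests in scipy 1.17.1. Simulated counts were used to test the scripts. No replicates of a group agreed within sampling noise (chi-square per degree of freedom 4.21 to 8.13).

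The SLRP genes, lists and markers were chosen with earlier results of these data known. Named genes are the 10 SLRP genes, from each list up to 2 with the largest rise and 2 with the largest fall among called genes whose mean reached 1 CPM, and the 2 nearest in pattern to each of the 4 most abundant SLRP genes. *Ecm2*, *Podn* and other relatives named as cluster neighbours or family members, markers and overlapping genes are exceptions. Alternatives were DESeq2 1.42.0, RLE, other filters, only the groups compared, limma 3.58.1 on log2(TPM + 0.1) and log2(TPM + 1), a replicate block and each culture left out. The unadjusted p with the 1.5-fold limit was added after seeing the data.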

Additional observations from a re-analysis of the deposited data

How the results depend on the processing

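Over up to 17 alternatives per gene, the direction against Control held in every SLRP gene for Ad-OSCAR (160 values also kept their side of the threshold, and 9 values of *Lum* and *Epyc* lost it). For treated against untreated Ad-OSCAR cells every value kept its direction and 6 values of *Dcn* and *Epyc* lost the call. For treated cells against Control, *Epyc* reversed on TPM with limma, to -0.014 with either pseudocount, and was not called in any setting; the cause was not tested. On log2(TPM + 0.1) and log2(TPM + 1) 7 genes were lower with Ad-OSCAR and 5 rose with 5-ASA, and on log2(TPM + 1) the fitted fall with Ad-OSCAR shrank to -0.72 in *Aspn* and -0.86 in *Chad*. With at least 10 counts in every culture *Aspn* was left out and 8 were lower with Ad-OSCAR. Without a culture in turn, 7 to 9 were lower with Ad-OSCAR and 6 to 7 rose with 5-ASA. For these alternatives the share of all genes called was not computed, so the counts show only whether the SLRP calls held. The median of all genes tested moved by less than 0.1 on the log2 scale under every scaling.

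The labels number the cultures 1 to 3 in each group without saying what a number stands for. Around the group means, cultures that share a number had correlations of -0.0724 to 0.0402 (mean -0.021 over 9 pairs), so the numbers were not taken as pairs. With the replicate number as a block, 1 SLRP gene was higher and 9 were lower with Ad-OSCAR, and 7 rose with 5-ASA. Of all genes tested, 9882 rather than 9983 were called for Ad-OSCAR and 2500 rather than 2732 for 5-ASA. No call of an SLRP gene by adjusted p changed under the block, while *Chad* passed the limit of 1.5 on the log2 scale there, which made 4 genes rather than 3. Depth limited *Aspn* (1 to 30 counts) and *Chad* (14 to 56 counts).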

Other observations

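*Cenpp*, the centromere protein gene that encloses *Aspn*, *Omd* and *Ogn* on the other strand, had 68, 89 and 56 counts in the Control cultures, 6, 2 and 3 in the Ad-OSCAR cultures and 1, 2 and 6 in the treated ones. It was named after its values were seen, and how strand was treated in its counting is not stated.

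The transcript length that RSEM gives each gene, weighted by the abundance of its annotated transcripts, was close to constant in the abundant SLRP genes. That of *Dcn* lay between 1728.6 and 1740.2 bases in all cultures and that of *Bgn* between 2159.7 and 2208.7 bases, with overlap between the groups. That of *Omd* lay between 1578 and 1582 bases with Control and between 1556 and 1633 bases with Ad-OSCAR, where at most 36 counts were read.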
